A study of Mus musculus with 4 samples.

Results

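Lineage-positive (Lin+) bone marrow cells were compared with short-term haematopoietic stem cells (ST-HSC), each measured on 1 single-colour Agilent expression array. These are 2 of the 4 fractions, and 2 of the 4 arrays, in the series, which follows blood cell differentiation. All 4 fractions were sorted from marrow of 8-week-old female mice of the C57BL6 background, and the labels name no treatment or engineered allele. Lin+ cells are labelled differentiated cells and were taken by lineage antigens alone, so the fraction mixes blood lineages. ST-HSC were c-Kit-positive, Sca-1-positive and lineage-negative (KSL) and carried CD34. The other 2 fractions, used here for levels set side by side, were long-term stem cells (LT-HSC; KSL without CD34) and c-Kit-positive lineage-negative progenitors, for which the labels disagree on whether Sca-1 was also gated. Whether RNA came from 1 mouse or from several pooled mice is not given in the sources used here. Of 20280 named genes on the array, 13298 entered the comparison because their signal was well above background on at least 1 of the 2 arrays.

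Short-term HSCs are multipotent cells that lie just downstream of long-term stem cells and repopulate an irradiated host for a limited time. They express the cytokine receptor genes Kit and Flt3 and transcription factors that hold the multipotent state. Lineage-positive marrow is mostly maturing granulocytes, red cell precursors, B cells, monocytes and a minority of T and NK cells. Neutrophils fill their granules in waves: primary granule proteins such as myeloperoxidase are made at the promyelocyte stage, and secondary and tertiary granule proteins such as lactoferrin are made later, under the transcription factor C/EBP epsilon. Red cell precursors build haemoglobin, heme and a specialised membrane skeleton.

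The promoter windows of 6 genes with large or contrasting values are shown first, because the results return to them. Each window holds 300 bases, most of them upstream of the annotated start, from RefSeq on build GRCm38.p6. In the first 5, capitals mark matches to the C/EBP pattern TTNCNNAA on either strand, and in Alas2 they mark AGATAA, the GATA factor core, on either strand. Ltf, encoding lactoferrin, lies at chr9:111019042-111019341 on the plus strand. Ngp, a neutrophil granule protein, lies at chr9:110419558-110419857 on the plus strand. Chil3, a secreted chitinase-like protein, lies at chr3:106167515-106167814 on the minus strand. Mpo, encoding myeloperoxidase, lies at chr11:87793534-87793833 on the plus strand. Cd34, the sorting antigen, lies at chr1:194938571-194938870 on the plus strand. Alas2, the erythroid enzyme that starts heme synthesis, lies at chrX:150547167-150547466 on the plus strand.
Ltf: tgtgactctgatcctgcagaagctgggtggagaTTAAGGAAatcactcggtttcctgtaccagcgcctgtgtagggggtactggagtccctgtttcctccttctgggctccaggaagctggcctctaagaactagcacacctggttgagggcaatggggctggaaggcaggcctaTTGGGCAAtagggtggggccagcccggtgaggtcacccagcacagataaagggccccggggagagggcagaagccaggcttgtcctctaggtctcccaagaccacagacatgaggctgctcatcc
Ngp: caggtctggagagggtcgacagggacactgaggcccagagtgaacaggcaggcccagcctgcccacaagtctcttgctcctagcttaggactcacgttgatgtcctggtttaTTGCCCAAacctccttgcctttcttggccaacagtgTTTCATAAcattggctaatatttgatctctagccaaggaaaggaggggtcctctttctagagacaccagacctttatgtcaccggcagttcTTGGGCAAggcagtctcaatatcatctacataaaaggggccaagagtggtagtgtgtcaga
Chil3: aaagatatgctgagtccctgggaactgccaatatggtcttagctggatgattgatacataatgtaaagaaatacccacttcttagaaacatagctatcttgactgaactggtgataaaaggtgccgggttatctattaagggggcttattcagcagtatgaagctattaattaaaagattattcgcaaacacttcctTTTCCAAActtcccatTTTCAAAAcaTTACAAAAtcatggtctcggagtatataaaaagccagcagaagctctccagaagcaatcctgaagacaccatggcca
Mpo: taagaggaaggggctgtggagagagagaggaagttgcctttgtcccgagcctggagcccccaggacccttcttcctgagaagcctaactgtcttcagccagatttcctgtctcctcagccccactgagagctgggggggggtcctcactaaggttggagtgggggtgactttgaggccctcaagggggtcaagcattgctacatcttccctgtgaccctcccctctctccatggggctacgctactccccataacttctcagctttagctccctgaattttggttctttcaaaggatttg
Cd34: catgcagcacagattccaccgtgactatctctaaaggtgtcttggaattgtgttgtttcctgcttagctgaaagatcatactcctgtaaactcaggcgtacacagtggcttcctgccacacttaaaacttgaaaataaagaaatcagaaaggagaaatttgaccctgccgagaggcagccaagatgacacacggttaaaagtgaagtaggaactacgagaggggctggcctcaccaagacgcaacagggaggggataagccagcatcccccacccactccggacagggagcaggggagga
Alas2: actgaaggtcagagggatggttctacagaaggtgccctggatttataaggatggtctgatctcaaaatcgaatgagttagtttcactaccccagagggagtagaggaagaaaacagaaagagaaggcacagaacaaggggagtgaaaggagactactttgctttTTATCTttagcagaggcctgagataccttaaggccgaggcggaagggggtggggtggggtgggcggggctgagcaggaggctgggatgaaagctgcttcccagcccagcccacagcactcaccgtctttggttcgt
The Ltf window holds 2 matches, those of Ngp and Chil3 hold 3 each, and those of Mpo and Cd34 hold 0. The pattern is short and common: 40.7% of all 32851 windows in the table hold it, and 33.0% of the windows of genes compared here. All patterns below were searched on both strands. A match describes the letters of a window and is not evidence of binding.

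Every level below is the log2 signal of a gene's probe relative to the 75th percentile of its own array, so a level of 0 is the signal of the probe at that percentile. That percentile lay at an intensity of 230 in Lin+ cells and 217 in ST-HSC, and 137 to 230 over the 4 arrays. From 40.9% to 45.9% of probes per array were well above background, and precision is limited by having so few arrays. The file headers give the same slide and scan for all 4 of them. A difference is the Lin+ level minus the ST-HSC level, and 1 on this scale is 2-fold. With 1 array per fraction there is no replicate check, so no p-value is given. Errors after ± are the scanner software's estimate for the spot and do not contain the spread between mice or sorts. The median error of a difference was 0.20. Where a gene was not well above background on 1 array, the difference is treated as a lower bound on its size. It is written as at least that much or, for negative values, as that value or lower. Such a bound is not strict. A gene well above background on 1 array alone can be called only in the direction of that array. Where bounds are many, the filter therefore partly fixes the direction of a list's count. A dim signal above the array's lowest well-above-background value was used as measured. For some genes a second probe gave a smaller difference. A list's median takes such bounds at their value, so the median over members measured on both arrays is given beside it where bounds are many. In such mixtures of cells, more cells of a type and more RNA per cell cannot be told apart.

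Of the 13298 genes compared, 4918 (37%) differed by at least 2-fold. Among them 2066 (15.5% of those compared) were higher in Lin+ cells and 2852 (21.4%) were lower, so 42.0% of the differing genes were higher. That split depends on scaling: it was 30.9% when each array was scaled to its median probe and 56.5% when the median gene was set to 0. The median gene above background on both arrays had a difference of -0.27, which was -0.49 under median scaling, so small shifts of whole gene families are read below relative to that value. The sizes were lopsided. At least 16-fold differences numbered 362 higher and 79 lower genes, and at least 128-fold differences numbered 84 higher and 0 lower.

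**Figure D1:**
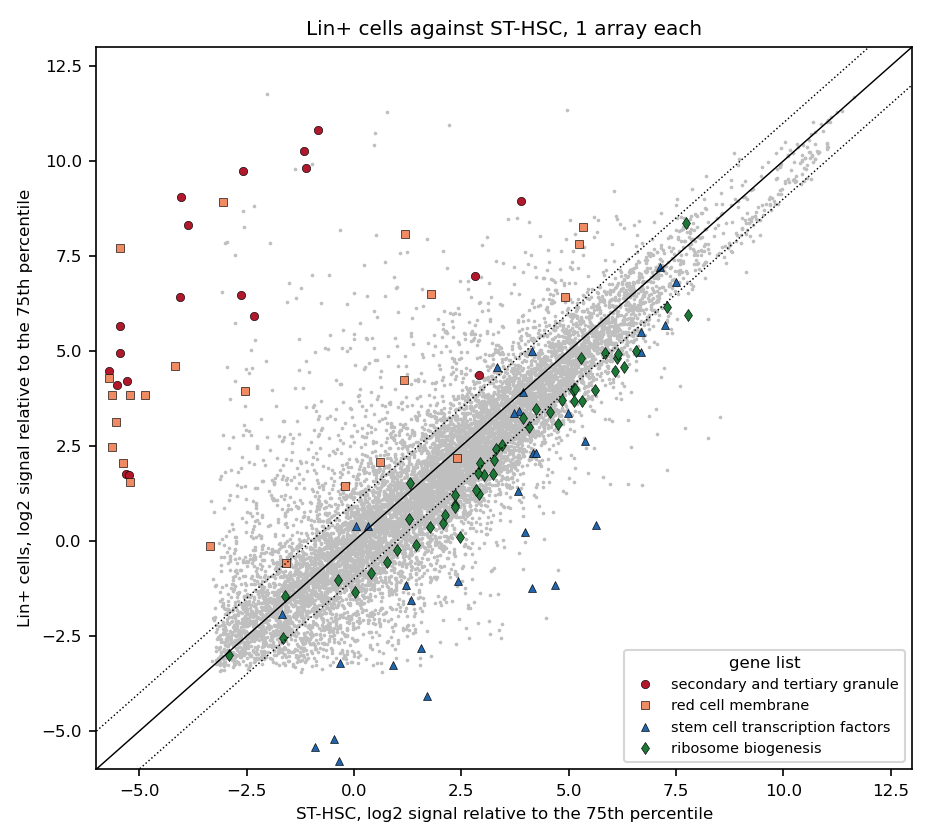
Level in Lin+ cells (vertical axis) against level in ST-HSC (horizontal axis), both as log2 signal relative to the array's 75th percentile, for genes above background on both arrays (grey) and the compared members of 4 lists (coloured; members below background on 1 array at their measured signal). The solid line is equality and dotted lines are 2-fold; all 19 secondary and tertiary granule genes lie above the upper line, and 34 of 48 ribosome biogenesis genes lie on or below the lower one.

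The sorting markers followed the gates at most genes but not all. Cd34 had a level of 3.26 ± 0.14 in Lin+ cells, against 8.53 ± 0.14 in ST-HSC. The difference was -5.27 ± 0.20, a 38.6-fold lower signal, and a second probe gave -4.04. Cd34 was at 7.34 in LT-HSC, a fraction gated as CD34-negative, and at 7.51 in progenitors, so its transcript was also high where the surface antigen was gated out. Kit, the stem cell factor receptor, was at 1.67 ± 0.10 in Lin+ cells and 5.0 ± 0.10 in ST-HSC (difference -3.34 ± 0.14). Flt3, a receptor of multipotent and early lymphoid progenitors, was at 1.68 in Lin+ cells and 5.81 in ST-HSC (difference -4.12 ± 0.20). Ly6a, which encodes Sca-1 and so was a positive gate of ST-HSC, ran the other way. It was at 4.51 in Lin+ cells and 3.12 in ST-HSC, a 2.61-fold higher signal in Lin+ cells.

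Of 16 compared sorting and lineage antigens, 10 were higher, 3 were lower and 3 differed by under 2-fold. Lineage antigens covered several branches. Cd3g, of the T cell receptor complex, was at least 4.70 higher. Il7r (4.34), Ly6c1 (3.15), Cd5 (2.20), Ptprc (1.63) and Cd3e (1.17) were higher, as was Cd8a by at least 1.73, where a second Cd8a probe gave 4.56. Cd48 was lower (-1.54). The probes of Itgam (0.05), encoding CD11b, Ly6e (-0.01) and Cd4 (0.49) differed by under 2-fold. Itgam was between 4.83 and 5.17 in all 4 fractions, ST-HSC included, although CD11b is a myeloid antigen; whether that probe reads only this transcript was not tested. Slamf1 was not well above background on either array.

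**Figure D2:**
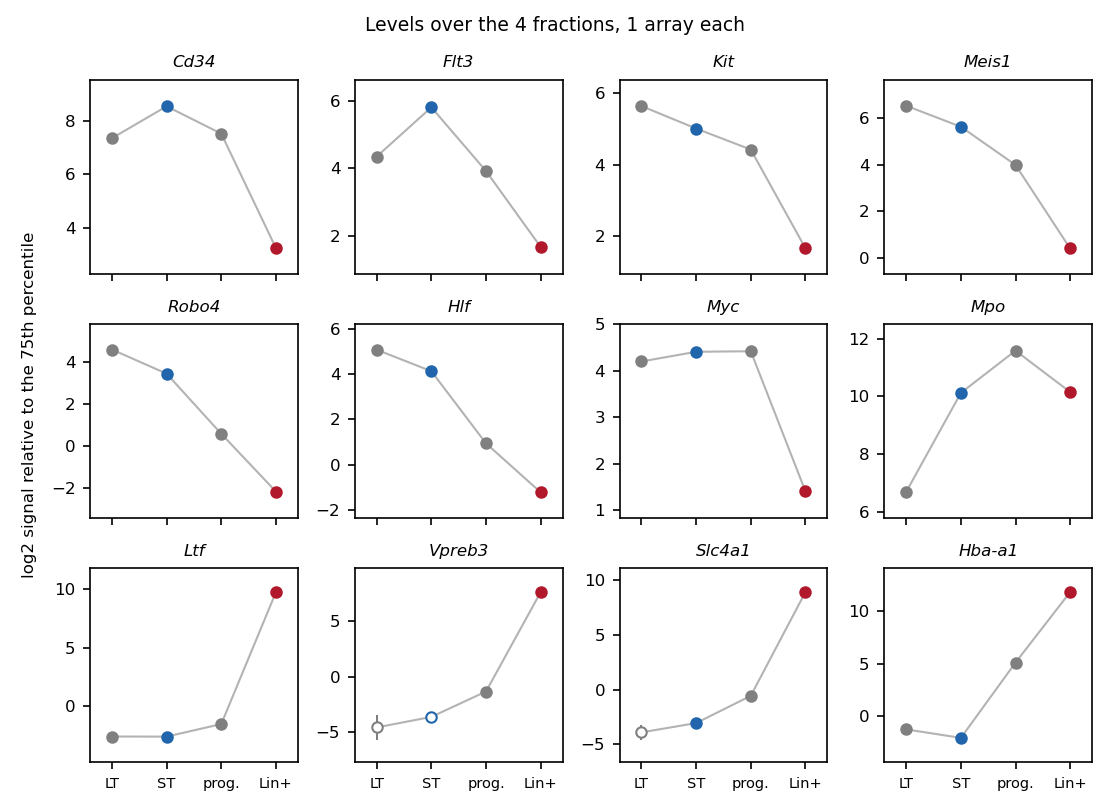
Level of 12 genes in LT-HSC, ST-HSC (blue), progenitors and Lin+ cells (red), 1 array each, as log2 signal relative to the array's 75th percentile; bars are the scanner software's spot error and open symbols were not well above background. Cd34 and Flt3 were highest in ST-HSC, Mpo was near 10.1 in both Lin+ cells and ST-HSC, and Ltf, Vpreb3, Slc4a1 and Hba-a1 were highest in Lin+ cells; each panel has its own vertical scale.

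Genes of the multipotent state were lower in Lin+ cells. Of 22 compared stem and progenitor surface genes, 13 were lower and 5 higher (median -2.25, or -1.71 over the 16 measured on both arrays, against -0.23 over all genes compared). Procr, encoding the EPCR receptor that marks stem cells, had a difference of -5.63 or lower. Robo4, an endothelial and stem cell guidance receptor, was at -2.18 in Lin+ cells and 3.44 in ST-HSC (difference -5.63 ± 0.26). Esam, a junction protein, had a difference of -5.2 or lower, and Cd27, a TNF receptor family member, one of -4.33. The 5 that were higher were Prom1 (at least 6.92; a second probe gave 4.12), Csf2rb2 (1.80), Csf2rb (1.41), Ly6a (1.38) and Thy1 (1.36), so surface genes used to describe stem cells did not share one direction. Il6st (0.06) and Cd47 (0.64) differed least.

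Stem cell regulators showed the same direction more uniformly. Of 32 compared members of a list of stem cell transcription factors and associated regulators, 22 were lower and 1 was higher, with a median of -2.14, or -1.72 over the 27 measured on both arrays. Meis1, a homeobox cofactor of Hox proteins, was at 0.41 ± 0.15 in Lin+ cells and 5.63 ± 0.14 in ST-HSC (difference -5.22 ± 0.21). Hlf, a bZIP factor of stem cells, was at -1.23 in Lin+ cells and 4.14 in ST-HSC (difference -5.37 ± 0.22). Angpt1, a secreted ligand that the list also holds, had a difference of -5.84 and Mycn one of -4.36. Hmga2, a chromatin protein, had -5.16 or lower and Nkx2-3, a homeobox factor, -4.18 or lower. Gfi1b, a repressor used by stem and erythroid cells, was the 1 higher member (1.24). Gfi1 (-0.01) and Zbtb16 (0.08) lay nearest to 0. Mecom and Hoxb5 were not well above background on either array.

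Of 19 Hoxa and Hoxb genes on the array, 12 were compared, 6 (50%) were lower and 0 were higher. Over all genes compared the shares were 21.4% and 15.5%. The median was -1.59, or -2.36 over the 5 measured on both arrays, of which 3 were lower. The other compared members were above background in ST-HSC alone and so could not be called higher. Hoxa7 was furthest below, at 0.23 in Lin+ cells and 3.98 in ST-HSC, a difference of -3.75. Hoxa9 differed by -2.88 and Hoxb4, a factor known to expand stem cells when forced, by -2.36. Hoxa3 (-3.62 or lower), Hoxa5 (-3.13 or lower) and Hoxa10 (-2.56 or lower) were lower as bounds. Hoxb2 (-0.57) and Hoxb6 (-0.07) were within 2-fold. For Hoxb3, Hoxa6 and Hoxa2 the bounds were -0.82, -0.72 and -0.48 or lower, short of 2-fold. In ST-HSC none of these 5 had a level above -2.10, and the background floor of that array was -3.39.

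Over the whole array, the largest negative differences included further genes. Slc16a11, a monocarboxylate transporter family member, was at -2.02 in Lin+ cells and 4.47 in ST-HSC, a difference of -6.50 ± 0.24. Mdga1 (-5.96), Mdfi (-5.62), Ctla2a (-5.54) and Muc13 (-5.41), a membrane mucin, were among the next. Hnf4a, a nuclear receptor best known from liver, was at 3.45 in ST-HSC and not well above background in Lin+ cells, a difference of -6.92 or lower. Vldlr had -6.40 or lower (a second probe gave -2.85) and Il17re -5.45 or lower.

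Genes of lymphoid priming held both directions. Of 17 compared, 7 were higher and 6 lower, with a median of 0.35 that was -0.63 when both arrays had to be above background. Dntt, encoding terminal transferase, which adds bases at antigen receptor joints, was at 4.07 in Lin+ cells and 7.58 in ST-HSC (difference -3.51). Flt3, Bcl11a (-1.61), Cd48 (-1.54), Satb1 (-1.51) and Lax1 (-1.07 or lower) were the other lower members. Ccr7, a homing receptor of lymphocytes and dendritic cells, was at 6.65 in Lin+ cells and -1.24 in ST-HSC (difference 7.89). Rag1, a subunit of the recombinase that cuts antigen receptor genes, was at least 5.12 higher, whereas the probe of its partner Rag2 differed by 0.12. Ccr9 (at least 4.89), Cecr2 (at least 4.54), Il7r (4.34), Tcf7 (at least 2.82) and Cd52 (2.37) were also higher.

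**Figure D3:**
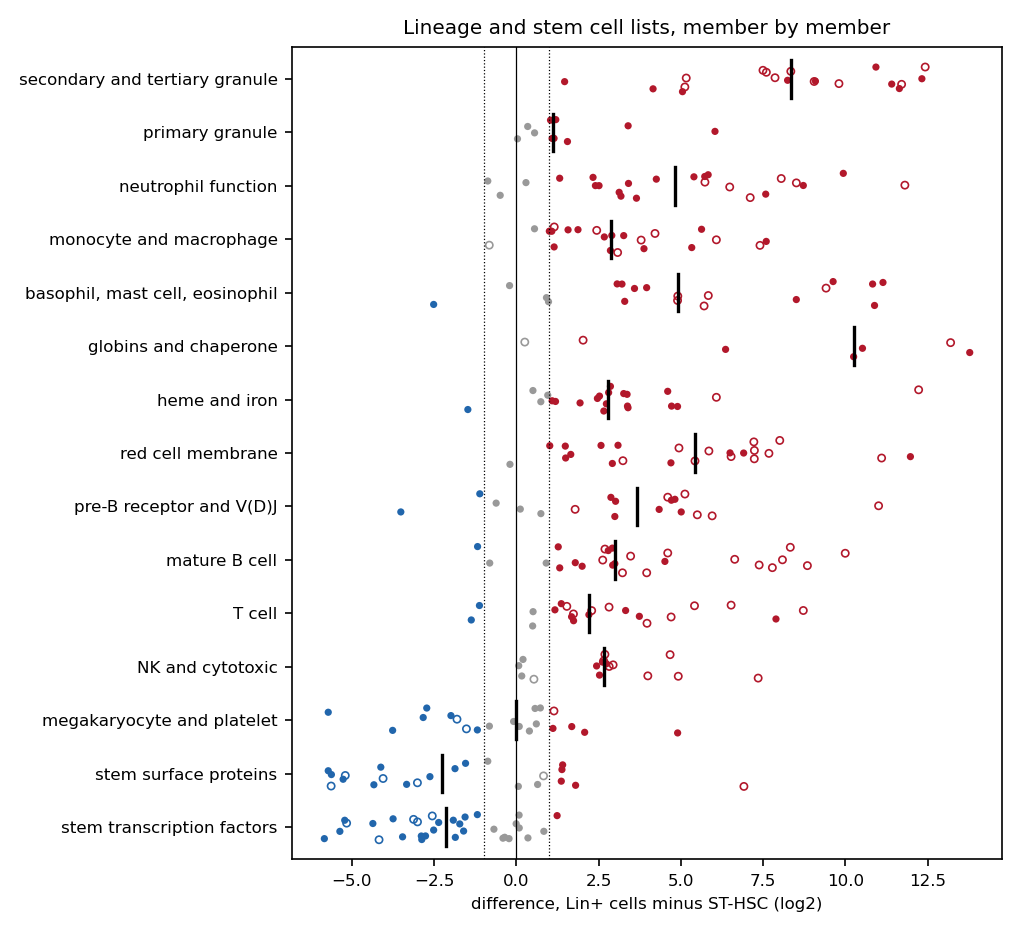
Difference of each compared gene, Lin+ cells minus ST-HSC (log2), for 15 lists; filled points were above background on both arrays, open points are bounds, red and blue mark at least 2-fold higher and lower, and black ticks are list medians. Secondary and tertiary granule genes lie between 1.47 and 12.43, while primary granule genes lie between 0.03 and 6.04 and stem transcription factors between -5.84 and 1.24.

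Late neutrophil genes made up much of the top of the comparison. All 19 compared secondary and tertiary granule genes were higher in Lin+ cells, 9 of them measured on both arrays and 10 as bounds. The median was at least 8.34, and 9.09 over the 9 measured genes. Ltf was at 9.74 ± 0.14 in Lin+ cells and -2.59 ± 0.23 in ST-HSC, a difference of 12.33 ± 0.28, or 5144-fold. Ngp was at 9.04 in Lin+ cells and not well above background in ST-HSC, at least 12.43 higher. Camp, encoding the antimicrobial peptide CRAMP, was at 10.80 in Lin+ cells and -0.84 in ST-HSC (difference 11.64 ± 0.21; second probe 11.55). Chil3 (11.41), Lcn2 (10.93), which binds bacterial siderophores, and Wfdc21 (at least 11.71) were close behind. Ltf was at -2.58 in LT-HSC and -1.52 in progenitors, while Chil3 was at -1.78 in LT-HSC and 3.4 in progenitors.

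Further members of the list were also higher. Lrg1 (at least 9.81), Mmp8 (9.09), Itgb2l (at least 9.05), Chil1 (at least 8.34), Adam8 (8.25), Cd177 (at least 7.86), Fcnb (at least 7.60) and Mmp9 (at least 7.50) encode granule enzymes, lectins and surface proteins. Mmp25 (at least 5.16), Orm1 (at least 5.12), Hp (5.05), Ltb4r1 (4.15) and Padi4 (1.47) had the smallest differences. Hp, encoding haptoglobin, was already at 3.89 in ST-HSC.

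Primary granule genes had smaller differences. Of 10 compared, 7 were higher and 0 lower, with a median of 1.11, and 3 were higher under median scaling. Mpo was at 10.15 ± 0.14 in Lin+ cells and 10.12 ± 0.14 in ST-HSC, a difference of 0.03 ± 0.20. It was at 6.70 in LT-HSC and 11.58 in progenitors. Ctsg, the serine protease cathepsin G, was at 8.75 in Lin+ cells and 8.20 in ST-HSC (0.55), and Serpinb1a, an inhibitor of these proteases, differed by 0.34. Elane, neutrophil elastase, was at 7.51 in Lin+ cells and 4.12 in ST-HSC (3.4). Lyz2, lysozyme of neutrophils and macrophages, was at 6.96 in Lin+ cells and 0.92 in ST-HSC (6.04). Cd63 (1.55), Ctsc (1.20), Prtn3 (1.14) and Prss57 (1.04) passed 2-fold narrowly. Bpi was not well above background on either array.

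**Figure D4:**
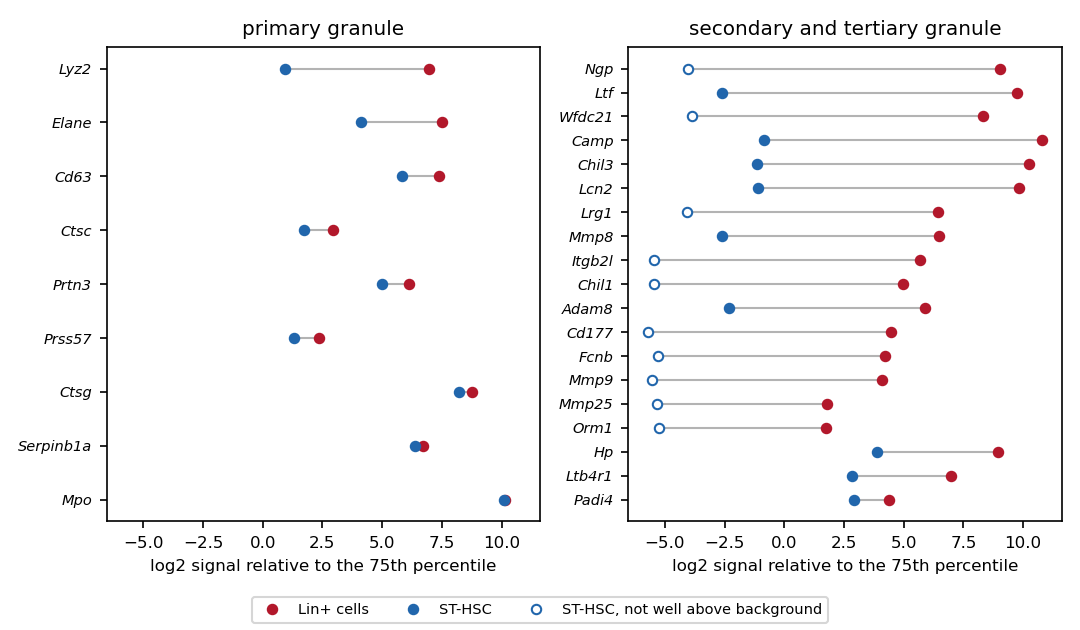
Level of primary granule genes (left, 9 of the 10 compared) and of each compared secondary or tertiary granule gene (right) in Lin+ cells (red) and ST-HSC (blue; open where not well above background), as log2 signal relative to the array's 75th percentile. The 2 Mpo points overlap at 10.15 in Lin+ cells and 10.12 in ST-HSC, while Ngp and Ltf span at least 12.43 and 12.33; levels of different genes come from different probes and are not comparable with each other.

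The C/EBP pattern shown in the Ltf, Ngp and Chil3 windows was in 10 of 15 windows (66.7%) of secondary and tertiary granule genes and in 2 of 8 (25%) of primary granule genes. The share over all windows was 40.7%. Of 21 windows of the neutrophil function list, 15 (71.4%) held it. Among the C/EBP genes themselves, 4 of 7 were higher and 0 lower. Cebpe, which drives late granule genes, was at 7.61 in Lin+ cells and 1.23 in ST-HSC, a difference of 6.38 ± 0.20. Cebpd (2.66), Ddit3 (1.56) and Cebpb (1.15) were higher. Cebpa, the factor needed for the first granulocyte step, differed by -0.46, and Cebpg (0.22) and Cebpz (-0.52) were also within 2-fold.

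Neutrophil function genes outside the granules were higher in 21 of 24 cases, 0 were lower, and the median was 4.83, or 3.29 over the 18 measured on both arrays. Retnlg was at least 11.81 higher. S100a8 was at 10.42 in Lin+ cells and 0.48 in ST-HSC (9.94), and its partner S100a9, with which it forms calprotectin, was at 10.94 in Lin+ cells and 2.22 in ST-HSC (8.72). The formyl peptide receptors Fpr2 (at least 8.51) and Fpr1 (at least 8.05) and the leukotriene enzyme Alox5 (7.58) were also among the 6 largest. Csf3r, the G-CSF receptor, was at 7.42 in Lin+ cells and 7.13 in ST-HSC and differed by 0.29. Ptgs2 differed by -0.49.

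Of 8 NADPH oxidase genes, which make superoxide in phagocytes, 6 were higher and 0 lower. Cybb, the catalytic subunit, was at least 5.97 higher, and Ncf1 (2.96), Cyba (2.44), Ncf4 (2.19) and Rac2 (1.28) followed. Rac1 (0.88) and Cybc1 (0.17) stayed within 2-fold. Genes of granulocyte and monocyte progenitors were higher in 9 of 20 cases (45%) and lower in 0, with a median of 0.67. Over all genes compared the shares were 15.5% and 21.4%. Under median scaling 7 were higher and 2 lower. Fcgr3 (4.51), Hdc (3.96), Igsf6 (3.29) and Ms4a3 (2.76) led with Fcnb and Elane. Srgn, the granule proteoglycan serglycin, was at 7.96 in Lin+ cells and 7.90 in ST-HSC (0.05), and like Mpo lay near 0.

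Eosinophil and basophil genes also stood at the top. Of 19 compared, 15 were higher and 1 lower, with a median of 4.90, or 3.44 over the 14 measured on both arrays. Ear2 (11.15), Prg2 (10.89), Ear1 (10.83), Epx (9.63), Prg3 (at least 9.41) and Prss34 (8.51) were the largest; the Ear and Prg genes and Epx encode eosinophil granule proteins, and Prss34 is a basophil protease. Prg2 was at 9.91 in Lin+ cells and -0.98 in ST-HSC, and was at 6.63 in progenitors. Rnase2a (11.15), a related ribonuclease gene, was another of the 10 largest measured differences. Gata2, shared by stem and mast cells, was the lower member, at 1.32 in Lin+ cells and 3.83 in ST-HSC (-2.52). Cpa3 (-0.21), a mast cell protease gene, and Tpsb2 (0.91) differed least.

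Of 22 compared monocyte and macrophage genes, 20 were higher and 0 lower (median 2.88, or 2.77 over the 14 measured on both arrays). Fn1, fibronectin, was at 7.01 in Lin+ cells and -0.58 in ST-HSC (7.60). Vcam1 (at least 7.41; second probe 5.58) and the iron exporter Slc40a1 (at least 6.08) mark marrow macrophages. Adgre1 (5.63), Cd14 (5.33) and C1qc (at least 4.21) completed the 6 largest. Ms4a6c (0.55) differed by under 2-fold, and Cd163 had a bound of -0.83 or lower, short of 2-fold. The PU.1 pattern GAGGAAG, on either strand, was in 8 of 15 (53.3%) windows of these genes and in 13.6% of all windows. It was in 5 of 15 windows of secondary and tertiary granule genes and 5 of 21 of the neutrophil function list.

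Dendritic cell genes were mixed, with 8 of 15 higher and 2 lower. Their median was 1.26, or 0.15 over the 10 measured on both arrays, of which 3 were higher and 2 lower. Cd209a (at least 4.83; second probe 3.15), Zbtb46 (at least 3.90), Clec9a (at least 2.57), Batf3 (at least 2.14), Irf7 (2.04) and Itgax (1.26) were higher, as were Ly6d and Ccr7, which B and T cells also express. Tcf4 (-1.16), which directs plasmacytoid dendritic cells, was lower with Flt3. Pacsin1 (0.11) and Siglech (0.19) lay nearest to 0. Of 10 MHC class II pathway genes, 6 were higher and 1 lower (median 2.90). Cd74, the invariant chain, was at 6.27 in Lin+ cells and -0.76 in ST-HSC (7.03), and H2-Aa (6.98), H2-Eb1 (6.62), H2-DMb2 (at least 3.38), H2-Ab1 (3.13) and Ctss (2.67) were higher. H2-DMa was lower (-1.12), and H2-Oa (0.27), H2-DMb1 (0.67) and H2-Ob (-0.98) were within 2-fold. H2-Ab1 was already at 4.52 in ST-HSC.

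Red cell genes formed the other extreme. Hba-a1, an adult alpha globin, was at 11.76 ± 0.14 in Lin+ cells and -2.02 ± 0.20 in ST-HSC, a difference of 13.78 ± 0.25 or 14100-fold, and the largest measured in this comparison. Of 7 compared globin and haemoglobin assembly genes, 6 were higher, with Hbb-bs at least 13.20, Hba-a2 10.52, Hbb-b2 10.25, Hbb-bt 6.36 and the embryonic Hbb-y at least 2.03 higher (second probe 3.63). Hbb-bh1, another embryonic globin, had a bound of at least 0.25, short of 2-fold. Alpha and beta globin copies are nearly identical in sequence, so the probes of 1 pair may read each other's transcripts. Hbb-bt had a level of 4.97 in ST-HSC and 5.64 in LT-HSC.

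Heme synthesis and iron genes were higher in 18 of 22 cases and lower in 1 (median 2.77). Alas2 was at 8.84 in Lin+ cells and not well above background in ST-HSC, at least 12.23 higher. Its housekeeping counterpart Alas1 was at 6.64 in Lin+ cells and 5.45 in ST-HSC. Among the next largest were Slc40a1, Fech (4.90), which inserts iron, Slc25a37 (4.72), which brings iron into mitochondria, and Cpox (3.39). Tfr2, the second transferrin receptor, was the lower member (-1.48). Ireb2 (0.50) and Steap3 (0.74) differed least.

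Of 23 compared red cell membrane genes, 22 were higher and 0 lower. The median was 5.43, but 2.74 over the 12 measured on both arrays. Among those 12, 11 were higher and 0 lower. Slc4a1, the band 3 anion exchanger, was at 8.92 in Lin+ cells and -3.06 in ST-HSC (11.98 ± 0.34). Rhd (at least 11.10), Kel (at least 8.01), Trim10 (at least 7.68), Add2 (at least 7.24) were also among the largest. Slc2a1, a glucose transporter that the list also holds, differed by -0.20 and Xk, a blood group protein, by 1.01. Of 14 erythroid regulators, 8 were higher and 2 lower. Tspo2 (7.98), Klf1 (6.10), Epor (5.76), Ube2l6 (3.69), Gata1 (3.06) and Bnip3l (2.15) led. Lmo2 (-1.56) and Bcl11a were lower, and Nfe2 (0.39) and Ldb1 (-0.61) lay nearest to 0.

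The GATA core marked in the Alas2 window, AGATAA on either strand, was in 5 of 18 (27.8%) windows of red cell membrane genes, 3 of 26 (11.5%) of heme and iron genes, 1 of 6 of globin genes, 3 of 13 (23.1%) of erythroid regulators and 6 of 20 (30.0%) of the eosinophil, basophil and mast cell list. Over all windows the share was 11.2%, and over those of genes compared 7.28%. A KLF1 pattern CCNCNCCC was in 11 of 18 windows of red cell membrane genes, 22 of 26 of heme and iron genes, 3 of 6 of globin genes and 11 of 13 of erythroid regulators, with 49.5% of all windows and 65.6% of those of genes compared.

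Megakaryocyte and platelet genes did not share a direction. Of 20 compared, 5 were higher and 8 lower, and the median was 0.00, with a sign that turned between scalings. The shares of 25% higher and 40% lower stand against 15.5% and 21.4% of all genes compared. Thbs1, a platelet and monocyte glycoprotein, was at 5.33 in Lin+ cells and 0.43 in ST-HSC (4.90). Itgb3 (2.07), Cd9 (1.68), Clec1b (at least 1.14) and Gp1bb (1.11) were the other higher members. F2r (-3.76), Mmrn1 (-2.83), Treml1 (-2.73), Selp (-1.99) and Gp5 (-1.81 or lower) were among the lower members. Treml1, a platelet receptor, was at 4.14 in LT-HSC and 4.27 in progenitors, against -1.57 in Lin+ cells and 1.15 in ST-HSC. Gp9 differed by -0.09.

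Most B cell genes compared were higher. Vpreb3, a chaperone of the pre-B receptor, was at 7.62 in Lin+ cells and not well above background in ST-HSC, at least 11.01 higher. Of 18 compared genes of the pre-B receptor and of V(D)J joining, 13 were higher and 2 lower (median 3.68, or 2.93 over the 12 measured on both arrays). Among those 12, 7 were higher and 2 lower. The surrogate light chain genes Igll1 (at least 5.95), Vpreb1 (5.01) and Vpreb2 (4.82), the factor Ebf1 (at least 5.50) and the adaptor Blnk (4.71) were higher, as were Cd79a (at least 4.60) and Cd79b (2.99). Vpreb1 and Vpreb2 are close copies of each other. Lig4 (3.01), Bach2 (2.87) and Pax5 (at least 1.79) followed, while Xrcc4 (-1.11), an end-joining factor, was lower with Dntt. The ubiquitous repair kinase gene Prkdc differed by -0.62 and Tcf3 by 0.74.

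Of 25 mature B cell genes, 22 were higher and 1 lower (median 2.99, or 1.89 over the 12 measured on both arrays). Among those 12, 9 were higher and 1 lower. Ly6d (at least 10.00), Spib (at least 8.85), Pou2af1 (at least 8.33), Fcmr (at least 8.09), Fcrla (at least 7.78) and Ms4a1 (at least 7.38), which encodes CD20, were the largest. Bcl2, the survival protein, was lower (-1.18), and Btk (-0.81) and Syk (0.91) were within 2-fold. Of 12 plasma cell genes, 6 were higher and 0 lower: Irf4 (at least 7.82), Mzb1 (at least 7.23), Jchain (at least 6.78), Prdm1 (1.86), Cd28 (1.74) and Edem1 (1.26). Xbp1 (0.49), Derl3 (0.36), Creld2 (-0.19) and Sdc1 (-0.37) were within 2-fold, and Tnfrsf17 and Fkbp11 had bounds of at least 0.28 each. The palindromic EBF1 pattern was in 0 of 18 windows of the pre-B list and 1 of 22 of the mature B list, and in 0.904% of all windows.

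T cell genes were higher in 17 of 21 cases and lower in 2 (median 2.20, or 1.52 over the 12 measured on both arrays). Among those 12, 8 were higher and 2 lower. Cd2 (at least 8.72), Ccr7, Cd3d (at least 6.53), Skap1 (at least 5.41), Cd3g and Cd8b1 (at least 3.97) were higher. Cd247 (at least 1.53), Bcl11b (at least 2.29) and Zap70 (3.74) followed. Gata3 (-1.37) and Lat (-1.12) were lower, and Lck (0.51) was within 2-fold with Cd4. Of 16 NK and cytotoxic genes, 12 were higher and 0 lower (median 2.67, or 2.44 over the 7 measured on both arrays). Only 4 of those 7 were higher, and the other calls were bounds. Gzma, granzyme A, was at 3.96 in Lin+ cells and not well above background in ST-HSC, at least 7.35 higher. Xcl1 (at least 4.92), Il2rb (at least 4.67), Tbx21 (at least 4.0) and Eomes (at least 2.94) were higher. Prf1 (0.07), Ctsw (0.16) and Nkg7 (0.20) differed little, although perforin and Nkg7 are cytotoxic genes.

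Transcription factor families split by member. Of 13 Ets and Gfi factors, 6 (46.2%) were higher and 3 (23.1%) lower. Over all genes compared the shares were 15.5% and 21.4%, so the lower share was near that of all genes. Spib, Ets1 (3.0), Ets2 (2.73), Spi1 (1.32), which encodes PU.1, Gfi1b and Spic (1.00) were higher. Erg, a stem cell and megakaryocyte factor, was at -1.04 in Lin+ cells and 2.42 in ST-HSC (-3.46), and Etv6 (-1.86) and Elf1 (-1.24) were lower. Fli1 (-0.36), Gabpa (-0.59), Elf4 (0.30) and Gfi1 were within 2-fold. Of 11 Krüppel-like factors, 7 were higher and 0 lower: Klf1, Klf5 (3.67), Klf4 (2.37), Klf3 (2.33), Klf2 (2.14), Klf7 (1.99) and Klf13 (1.00, at the threshold). Klf9 (-0.89), Klf10 (-0.57), Klf11 (0.58) and Klf6 (0.69) were not.

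Of 9 interferon regulatory factors, 3 were higher and 0 lower: Irf4, Irf7 and Irf5 (1.42). Irf8, needed by monocytes and dendritic cells, was already at 5.43 in ST-HSC and differed by 0.68. Irf9 (0.32), Irf2 (-0.38), Irf1 (-0.42) and Irf3 (-0.51) were also within 2-fold. Of 17 lymphoid factors, 11 (64.7%) were higher and 3 (17.6%) lower, the latter below the 21.4% of all genes. Besides Ebf1, Lef1 (at least 4.78), Id2 (3.55), Id3 (2.54), Ikzf3 (at least 2.14), Foxo1 (1.99), Bcl6 (1.40) and Id1 (1.06) were higher. Ikzf2, encoding Helios, was lower (-2.89), whereas Ikzf1, encoding Ikaros, was at 2.89 in Lin+ cells and 2.96 in ST-HSC.

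Of 16 chemokine and sphingosine phosphate receptors, which guide cells between marrow, blood and tissues, 15 were higher and 0 lower (median 3.02, or 2.59 over the 8 measured on both arrays). All 8 measured on both arrays were higher, and the other calls were bounds. After Ccr7 came Cxcr5 (at least 7.10), a B cell receptor, Ccr3 (at least 4.91) of eosinophils, Ccr9, Cxcr3 (4.81) and Ccr6 (at least 4.04). Cxcr4 was at 4.82 in Lin+ cells and 2.49 in ST-HSC (2.33), and Cxcr2, which releases neutrophils, was 3.18 higher. Cxcr1 differed by at least 0.12. Of 10 compared Fc receptor genes, 9 were higher and 0 lower; Fcgr4 (5.55), Fcgr3, Fcer1a (at least 4.90), Fcer1g (2.99), Fcgr1 (2.72) and Fcgr2b (1.76) were among them, and Fcgrt (0.96) fell short.

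Cytokine receptor genes were less uniform: of 24, 9 (37.5%) were higher and 4 (16.7%) lower, against 15.5% and 21.4% of all genes. Epor, Il7r, Il1r2 (4.25), a decoy receptor, Il5ra (3.21), Csf2ra (2.0) and Csf2rb2 had the largest positive differences. Flt3, Il1r1 (-3.62) and Kit were among the lower genes. Il6st and Ifnar1 (0.08) lay nearest to 0. Of 10 compared Toll-like receptor genes and partners, 5 were higher and 0 lower: Tlr13 (5.79), Cd14, Tlr2 (3.23), Tlr1 (at least 2.09) and Tlr6 (1.19). Tlr7 (0.12), Tlr4 (0.23), Ly96 (-0.38), Tlr9 (0.91) and Myd88 (0.94) were within 2-fold. Of 15 integrin genes, 7 (46.7%) were higher and 3 (20%) lower, the latter near the 21.4% of all genes. Itgb2, the beta subunit shared by leukocyte integrins, was at 5.07 in Lin+ cells and 0.48 in ST-HSC (4.59), while Itgb5 (-2.17), Itga6 (-1.55) and Itga2b (-1.19) were lower.

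Cell division genes were mostly within 2-fold. Of 50 compared mitosis genes, 8 were higher and 1 lower, with a median of 0.55. Cdkn3 (1.92), Mki67 (1.89), Ube2c (1.86), Racgap1 (1.72), Cdca3 (1.43) and Cenpa (1.30) were the largest. Mki67, whose protein coats mitotic chromosomes, was at 6.78 in Lin+ cells and 4.89 in ST-HSC, and at 1.51 in LT-HSC. Aurkb was the lower member (-1.54), and Kif20a (-0.03) and Bub1 (-0.04) lay nearest to 0. With the median gene set to 0, 16 members were higher. A share of 16% higher is near the 15.5% of all genes compared, whereas 2% lower is below the 21.4%. The CHR pattern TTTGAA, a promoter element of late cell cycle genes, was in 35 of 46 (76.1%) of their windows against 17.9% of all windows and 12.7% of those of genes compared.

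Of 39 DNA replication genes, 4 (10.3%) were higher and 1 (2.56%) lower, both below the shares over all genes, with a median of -0.04 that changed sign between scalings. The higher genes were Rrm2 (2.25), a ribonucleotide reductase subunit, Cdc6 (1.21), Orc1 (1.12) and Cdc45 (1.1), and the lower gene was Pole (-1.18). Pcna differed by -0.04 and Tyms by 0.06. Of 56 compared histone genes, 10 (17.9%) were higher, near the 15.5% of all genes, and 1 (1.79%) lower (median 0.43), and 17 were higher with the median gene at 0. H2bc22 (2.74), H2bu2 (2.54) and H4c17 (1.70) led, and H1f10, a linker histone, was lower (-3.28). Many histone copies are nearly identical, so their probes may share transcripts. Of 33 compared kinesin genes, 4 (12.1%) were higher and 6 (18.2%) lower, near the shares over all genes, with a median of 0.01 whose sign changed between scalings. Kif1b (1.83), Kif21b (1.45), Kifc1 (1.02) and Kif18b (1.02) were higher, and Kif5a (-1.92), Kif3a (-1.86), Kif27 (-1.76) and Kif16b (-1.40) were among the lower genes.

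Genes that start the cycle differed in direction. Of 7 compared G1 cyclins and kinases, 4 were lower and 2 higher. Cdk6, the kinase that stem cells use to leave quiescence, was at -2.12 in Lin+ cells and 0.57 in ST-HSC (-2.69). Ccnd2 (-2.10), Ccnd1 (-1.69) and Cdk4 (-1.52) were also lower. Ccnd3 was at 8.23 in Lin+ cells and 6.29 in ST-HSC (1.94), and Ccne1 was at 5.44 in Lin+ cells and 2.60 in ST-HSC (2.84). Cdk2 differed by 0.49. Of 21 cycle inhibitors and quiescence genes, 7 (33.3%) were higher and 3 (14.3%) lower, the latter below the 21.4% of all genes. Rb1 (2.59), Btg1 (2.42), Cdkn2d (2.05), Foxo1, Cdkn2c (1.72) and Btg2 (1.15) had the largest positive differences. The 3 lower genes were Cdkn1a (-1.72), which encodes p21, Tsc1 (-1.11) and Cdkn1c (-1.02), which encodes p57. Foxo4 differed by 0.04.

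Myc, a driver of cell growth, was at 1.41 ± 0.10 in Lin+ cells and 4.41 ± 0.10 in ST-HSC, a difference of -3.0 ± 0.14. It was at 4.2 in LT-HSC and 4.42 in progenitors, so of the 4 fractions Lin+ cells had the lowest level. Mycn differed by -4.36. The antagonists Mxd1 (3.65) and Mxd3 (2.02) were higher, as was Mycl (at least 1.66). Max, the shared partner, was at 5.0 in Lin+ cells and 4.65 in ST-HSC (0.34). Mnt (-0.38), Mga (-0.46), Mlx (0.80) and Mxd4 (-0.95) were within 2-fold.

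Ribosome biogenesis genes were lower as a group. Of 48 compared, 34 (70.8%) were lower and 0 higher, against 21.4% lower over all genes. Their median was -1.24, and -0.97 when the median gene was set to 0, a setting that left 22 lower. Wdr12 (-2.38), Npm1 (-1.83), encoding nucleophosmin, Nop10 (-1.70), Nop58 (-1.69), Rrp15 (-1.66) and Gar1 (-1.65) had the most negative differences. Npm1 was at 5.96 in Lin+ cells and 7.79 in ST-HSC. Taf1a (-0.08) and Taf1b (0.18), of the RNA polymerase I selectivity factor, lay nearest to 0. The E-box CACGTG, bound by MYC and other factors, was in 8 of 52 (15.4%) of their windows and 7.15% of all windows, and in 8 of 66 (12.1%) of the windows of cytosolic ribosomal protein genes. It was in 9.70% of the windows of genes compared and 11.0% of those of genes at least 2-fold lower.

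Cytosolic ribosomal protein genes differed by less. All 76 had a negative difference, between -1.18 and -0.28, with a median of -0.73. The number at least 2-fold lower was 7 (9.21%, below the 21.4% of all genes), but 35 under median scaling and 0 with the median gene at 0, where the median was -0.46. Rpl36a (-1.18), Rpl11 (-1.10), Rpl12 (-1.03), Rpl14 (-1.02), Rpl39 (-1.01) and Rpl22 (-1.01; second probe -2.68) had the most negative differences. Rpl23 (-0.28) and Rplp0 (-0.30) differed least. Of 77 compared mitochondrial ribosomal protein genes, 16 (20.8%) were lower, about the 21.4% of all genes, and 0 higher (median -0.64), with 30 lower under median scaling and 7 with the median gene at 0. Mrps6 (-2.0), Mrpl50 (-1.53), Mrps2 (-1.47), Mrps31 (-1.40), Mrps25 (-1.32) and Mrpl12 (-1.30) led.

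**Figure D5:**
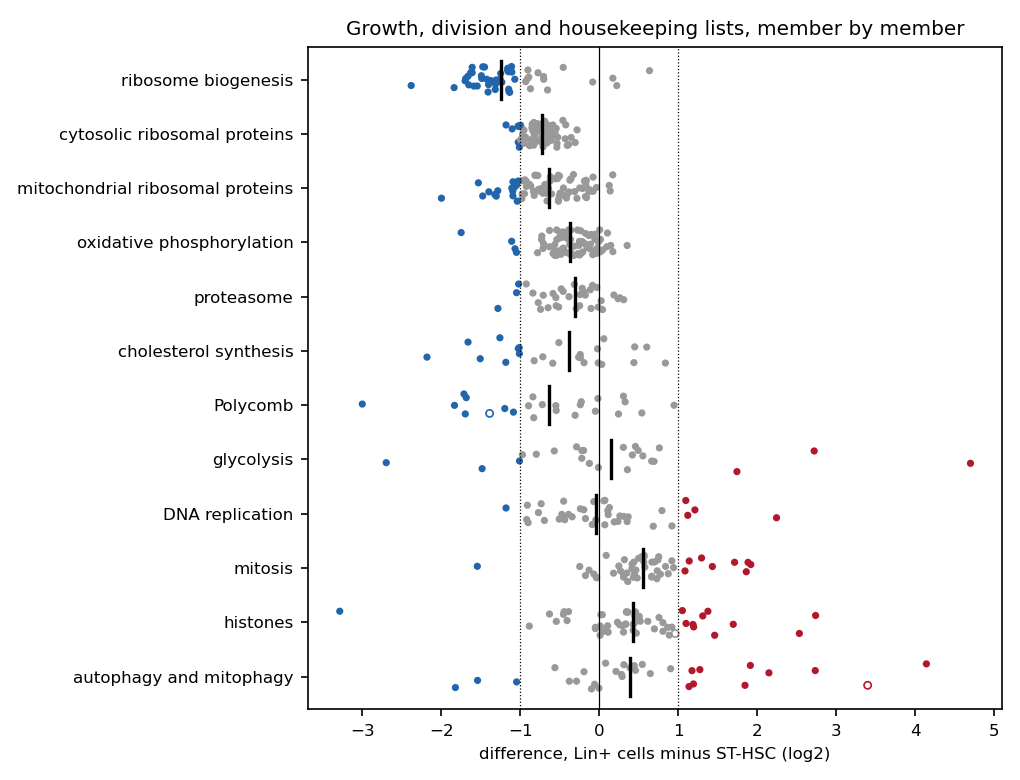
Difference of each compared gene, Lin+ cells minus ST-HSC (log2), for 12 growth, division and housekeeping lists; filled points were above background on both arrays, open points are bounds, blue and red mark at least 2-fold lower and higher, and black ticks are list medians. The ribosome biogenesis median was -1.24, the cytosolic ribosomal proteins lay between -1.18 and -0.28, and the mitosis median was 0.55.

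Oxidative phosphorylation and proteasome genes stayed close to the median gene, while glycolysis genes held both directions. Of 77 oxidative phosphorylation genes, 4 (5.19%) were lower, below the 21.4% of all genes, and 0 higher. Their median was -0.36, or -0.10 with the median gene at 0. The 4 were Ndufa4 (-1.75), Ndufa12 (-1.11), Uqcrb (-1.06) and Atp5g2 (-1.05). Of 34 proteasome genes, 3 (8.82%) were lower and 0 higher, and those 3 were Psmb8 (-1.28), Psmb10 (-1.04) and Psmb9 (-1.02), which encode the catalytic subunits of the immunoproteasome. Psmb8 was at 4.92 in Lin+ cells and 6.21 in ST-HSC. Of 24 glycolysis genes, 3 (12.5%) were higher and 3 (12.5%) lower, neither above the shares over all genes. The lactate exporter Slc16a3 was at 6.46 in Lin+ cells and 1.76 in ST-HSC (4.70), and Pfkfb4 (2.72) and the glucose transporter Slc2a3 (1.75) were higher. Aldoc (-2.69), Pfkl (-1.48) and Pfkm (-1.01) were lower, and Gapdh differed by -0.01.

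Of 24 compared cholesterol synthesis genes, 8 (33.3%) were lower and 0 higher, against 21.4% lower over all genes. The median was -0.38, and 3 were lower with the median gene at 0. Stard4 (-1.66), Sqle (-1.5), Cyp51 (-1.26), Dhcr7 (-1.18) and Idi1 (-1.02) were among the most negative, while Nsdhl (-0.01) did not differ by 2-fold. Of 31 autophagy and mitophagy genes, 10 (32.3%) were higher and 3 (9.68%) lower, the latter below the 21.4% of all genes. Atg9a (4.14), Optn (at least 3.4), Wipi1 (2.74), Bnip3l, Gabarapl2 (1.92) and Tfeb (1.85) had the largest positive differences, and Bnip3l clears mitochondria from maturing red cells. Gabarapl1 (-1.82), Fundc1 (-1.54) and Bnip3 (-1.04) were lower, so the paralogues Bnip3l and Bnip3 differed in direction.

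Of 9 compared DNA methylation genes, 1 (11.1%) was higher and 3 (33.3%) were lower, against 15.5% and 21.4% of all genes. Dnmt3b, which sets new methylation, was at 1.55 in Lin+ cells and 5.13 in ST-HSC (-3.58), and Dnmt3a was at -0.08 in Lin+ cells and 2.60 in ST-HSC (-2.68). Dnmt1, which copies methylation after replication, differed by -0.62, its partner Uhrf1 by 0.07 Tet2 by -0.16, Tet3 by 0.34 and Mbd4 by -0.36. Dnmt3l was at least 2.45 higher, and Tdg was lower (-1.1) with other probes between -0.53 and 0.12. Of 24 compared Polycomb genes, 8 (33.3%) were lower and 0 higher (median -0.63), against 21.4% and 15.5% of all genes. With the median gene at 0, 6 were lower and 1 higher, and the median was -0.37. Cbx2 (-3.0), Pcgf6 (-1.83), Phc1 (-1.71), Bmi1 (-1.69), which sustains stem cells, Cbx6 (-1.68) and Pcgf2 (-1.39 or lower) were the most negative. Ezh1 (-0.01; second probe opposite in sign) and Cbx8 (-0.05) differed least.

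Among 14 BCL2 family genes, 4 were higher and 3 (21.4%, the share over all genes) lower, with both survival and death genes on each side. Bcl2a1d (3.88) and Bcl2l1 (3.23), which protect cells, and Bmf (3.71) and Pmaip1 (2.29), which promote death, were higher. Bcl2l1, encoding BCL-XL, was at 7.29 in Lin+ cells and 4.05 in ST-HSC. Bok (-2.31), Bcl2 and Bcl2l2 (-1.01) were lower, and Bid (-0.02) and Bak1 (-0.04) lay nearest to 0. Of 30 interferon-stimulated genes, 5 (16.7%) were higher and 3 (10%) lower, against 15.5% and 21.4% of all genes, led by Isg20 (4.08), Rsad2 (4.07) and Isg15 (2.52) and, on the lower side, Ifi44 (-4.06), Rtp4 (-1.43) and Oasl2 (-1.09). The median was -0.03 and changed sign between scalings.

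Of 26 immediate-early and heat shock genes, which respond within minutes to handling or stress of cells, 7 (26.9%) were higher and 6 (23.1%) lower. Over all genes compared the shares were 15.5% and 21.4%, so the lower share was near that of all genes. Hspa1a, an inducible HSP70, was at 3.16 in Lin+ cells and -1.34 in ST-HSC (4.5), and at 4.13 in progenitors. Klf4, Klf2, Ier5 (1.68), Atf3 (1.52) and Jund (1.46) were the next largest. Ier3 (-1.84), Hspd1 (-1.60), Hspe1 (-1.21), Nr4a1 (-1.20), Egr1 (-1.19) and Fos (-1.03) were lower. Dnajb1 (0.04) and Hspa5 (-0.14) lay nearest to 0. The part of cell handling in other differences was not tested.

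Markers of cells that neither gate selects were also measured. Of 19 marrow stroma and bone genes on the array, 9 were compared, 4 were higher and 4 lower. The summed linear signal of the list's genes on the array, in units of each array's 75th percentile, was 26.5 in Lin+ cells and 31.0 in ST-HSC. The defining genes Pdgfra, Col3a1, Kitl, Sp7, Adipoq, Dcn, Lum, Igfbp5, Ibsp and Bglap2 were not well above background on either array. Col1a1 (2.05), Spp1 (1.5) and Cxcl12 (at least 1.26) were higher, and the probes of Lpl disagreed. Pdgfrb (-5.08), Col1a2 (-3.24), Sparc (-2.24) and Runx2 (-1.12) were lower, and Lepr differed by 0.15. Of 12 compared sinusoidal endothelium genes, 3 were higher and 5 lower. The summed signal of the 16 on the array was 49.8 in Lin+ cells and 261 in ST-HSC. Esam, also on the list of stem and progenitor surface genes, is counted in it but was a small part of the ST-HSC sum. Its intensity there was 726, against 217 at that array's 75th percentile. Whether stem cells themselves express the other members of the list was not tested. Flt4, Tek, Lyve1 and Cldn5 were not well above background on either array. Flt1 (at least 2.06), Stab2 (at least 1.73) and Stab1 (at least 1.19) were higher, while Egfl7 (-4.76), Esam, Ramp2 (-3.03 or lower), Emcn (-3.01 or lower) and Eng (-2.63) were lower. Pecam1 (0.10), Kdr (0.14) and Plvap (-0.65) were within 2-fold, and Cdh5 had a bound of at least 0.82. The part of such cells in the results was not tested.

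When the compared genes were split into 5 equal groups by the length of genome they cover, the shares higher in Lin+ cells were 14.4% to 18% and the medians -0.29 to -0.15. Ordered by mean level over both arrays, 20.6% of genes in the dimmest group were higher and 23.5% lower, and in the brightest group 11.5% were higher and 12.2% lower.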

How the data were processed

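The 4 scanner files give a background-subtracted, spatially detrended intensity per spot with its error, made with Agilent Feature Extraction 10.7.1.1, per the file headers, with no scaling between arrays. The deposited value table holds a ratio per probe: dividing the processed signal by an array-wide constant returns it to within 1% for 100% of 55246 single-spot probes, with column medians of 0.0619 to 0.0738. Its direction and log state are thus settled. The constants lay close to the arrays' 75th percentiles, at 229.8 against 230.4 in Lin+ cells and 216.9 against 217.5 in ST-HSC. How they were chosen is not given in the sources used here. The value table thus has nearly the scaling used here and is not an independent alternative to it.

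From each array, log2 of the processed signal minus the array's 75th percentile over non-control probes was taken, spots of a probe were averaged, and 26756 of 55678 probes were named by a RefSeq gene of GRCm38.p6. A gene took 1 probe, and probes that differ are stated. A gene entered when well above background on at least 1 of the 2 arrays. For a dim side, its value or that array's lowest well-above-background value was used, whichever was higher, and the difference is treated as a bound. A gene is called higher or lower at 2-fold. With 1 array per fraction no test was made, and a precision between mice cannot be given.

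The step was tested on simulated data for 12141 genes of this comparison: of 50 genes changed 3-fold, 47 were called, of 50 changed 1.5-fold, 2 were called, and 160 of 11941 unchanged genes were called. Both simulated arrays were built from the ST-HSC values with the scanner software's spot error alone. They held no spread between mice, sorts or arrays, and no gene above background in Lin+ cells alone. The simulation therefore does not give the rate of false calls in the real comparison. Alternatives were normexp background correction in limma 3.58.1 (R 4.3.3; offset 50, on the median signals, because the mean signal is not among the columns used), other scalings, filters, probe averaging and the value table. Python 3.11.15 with pandas 2.3.3 was used otherwise.

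Genes could be named if they were marker or sorting genes, among the 10 largest measured differences or 6 largest bounds in each direction with agreeing probes, members of a list with 12 or fewer measured genes, or among the 6 largest called in each direction or the 2 nearest to 0 of a longer list. Not every gene that met this rule is named, and in the longer of the lists with 12 or fewer measured genes mainly the largest are. Further list members were named for their role after their values were seen. The genes and all 56 lists were chosen with earlier results of these data known, and the histone and ribosomal protein lists were redefined by symbol after the files were read. Some members of these sets are not reported here.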

Additional observations from a re-analysis of the deposited data

How the results depend on the processing

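The direction of the comparison was recomputed under 10 alternatives. The share of differing genes that were higher in Lin+ cells was 30.9% under median scaling and 56.5% with the median gene at 0, against 42.0% as reported. The number of higher genes was 1355 when both arrays had to be above background, against 2066; that filter removes bounds by construction. The cause of the other shifts was not tested. The other counts over all genes stayed within 1.5 times. Of 483 named genes recomputed, 375 were at least 2-fold different; 78 of them dropped under 2-fold in at least 1 setting, most often under normexp (43), 23 others passed 2-fold in at least 1 setting, and none of the 375 changed direction. List medians near 0 changed sign in some settings, as stated for lymphoid priming, replication, kinesin, interferon-stimulated and megakaryocyte genes, and also for integrins, glycolysis, stroma, MYC network and immediate-early lists. No paired analysis was possible because each fraction has 1 array. Genes not well above background on 1 of the arrays have bounds only. The background floors were -3.47 in Lin+ cells and -3.39 in ST-HSC.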

Other observations

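Probes that carry no RefSeq gene name also differed between the fractions. Of 5596 compared probes with another identifier, 911 were higher and 824 lower in Lin+ cells, and 31.0% differed by at least 2-fold. Of 4943 compared probes placed only on a genomic interval, 733 were higher and 677 lower (28.5%). For probes with a RefSeq gene the share was 36.1%. The largest differences among unnamed probes were 9.55 for A_51_P509679, 9.27 for A_55_P1960148 and 8.80 for A_55_P2060897. The most negative were -6.68 for A_55_P2257670, -4.93 for A_30_P01025123 and -4.63 for A_30_P01030126. Of the 4918 genes that differed by at least 2-fold, 4392 were on none of the lists described.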
